A study of Homo sapiens with 3 samples.

Results

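The genes described here are 10 collagen chain genes out of 19775 genes with a probe set of their own on the array. They comprise the fibrillar chains COL1A1 (gene ID 1277), COL1A2 (1278), COL3A1 (1281), COL5A1 (1289) and COL5A2 (1290), the basement membrane chains COL4A1 (1282) and COL4A2 (1284), and the collagen VI chains COL6A1 (1291), COL6A2 (1292) and COL6A3 (1293). They were chosen by family membership after these same arrays had shown COL3A1 among the genes higher with both siRNAs, so the values below are a description with no test. All 33 probe sets that name 1 of these genes alone were taken.

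The cells were UM-UC-3, an established human bladder cancer line. In every group they were transfected with 75 nM of an siRNA by a lipid reagent and RNA was taken after 48 h. The control group received a negative control siRNA, and the other groups received DANCR siRNA1 or DANCR siRNA2, which target the long noncoding RNA DANCR. Each group was 1 Affymetrix array (3 in all) from 1 cell line, so no difference below has a replicate check, and the number of arrays limits the precision.

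The siRNA sequences are shown because each array differs from the others by this oligonucleotide alone, as far as the labels state. Capitals mark the bases written as T in the labels, at the end of each strand.
Control siRNA: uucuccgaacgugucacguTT
DANCR siRNA1: gcguacuaacuuguagcaaTT
DANCR siRNA2: gagcuagagcagugacaauTT

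Collagens are extracellular proteins in which 3 chains wind into a triple helix. The fibrillar types I, III and V form the fibrils of connective tissue, with type V chains at the core of mixed fibrils. Type IV forms the sheet-like network of basement membranes, and type VI forms beaded filaments beside them. Fibroblasts are the main source of the fibrillar types, whereas epithelial and endothelial cells contribute type IV. Chains of a type are made together: COL1A1 pairs with COL1A2, COL5A1 with COL5A2, COL4A1 with COL4A2, and the collagen VI chains with each other, while type III is a trimer of COL3A1 alone.

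COL4A1 and COL4A2 lie head to head on chromosome 13, and their start sites are 127 bases apart in RefSeq (GRCh38.p14). The stretch that the promoter windows of both genes share is printed because both genes were higher with siRNA2. It spans chr13:110307108-110307333, 226 bases on the plus strand, which is the strand of COL4A2. Capitals mark a CCAAT motif (the core of the sequence bound by the factor NF-Y) and a GGGCGG motif (the GC box, the core bound by SP1).
COL4A1 and COL4A2 shared stretch: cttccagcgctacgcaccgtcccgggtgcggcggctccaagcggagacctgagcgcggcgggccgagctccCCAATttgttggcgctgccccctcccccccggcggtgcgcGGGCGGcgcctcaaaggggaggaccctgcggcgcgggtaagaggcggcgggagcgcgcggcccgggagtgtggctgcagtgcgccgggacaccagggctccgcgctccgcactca
The window of COL5A1, a gene that was also higher with siRNA2, is printed for comparison. It spans chr9:134641553-134641852 on the plus strand, and capitals mark its 2 GC box matches, both on the minus strand.
COL5A1 window: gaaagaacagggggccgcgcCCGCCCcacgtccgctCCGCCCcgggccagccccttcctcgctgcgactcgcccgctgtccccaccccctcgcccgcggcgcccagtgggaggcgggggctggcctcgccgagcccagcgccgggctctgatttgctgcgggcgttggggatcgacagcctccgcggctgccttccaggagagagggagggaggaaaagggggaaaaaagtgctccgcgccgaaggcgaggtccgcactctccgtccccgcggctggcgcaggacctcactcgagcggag

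RefSeq promoter windows, 250 bases before to 50 after each start, were at hand for 5 of the 10 genes (COL4A1, COL4A2, COL5A1, COL6A2 and COL6A3). Matches to CCAAT were searched on both strands, and so were those to the GC box GGGCGG. The TATA box was searched as TATAAA in the same way, and no match of one motif overlaps another. A CCAAT match was in the windows of COL4A1 and COL4A2, where it is the same match, and in none of the other 3. It is in 34.6% of the 35116 windows of the table. A GC box was in all of these windows except that of COL6A3, and in 45.0% of the table. The window of COL6A2 had 4 GC boxes and the only TATA box of the 5, and a TATA box is in 11.5% of the table. A match describes the letters of the window and does not show that a factor binds there.

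**Figure D1:**
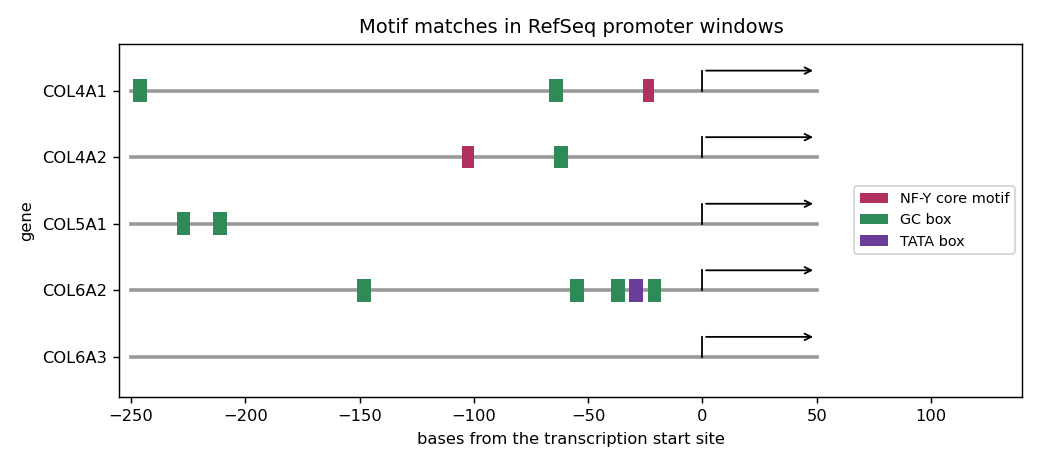
Matches to the NF-Y core motif, the GC box and the TATA box in the promoter windows of 5 collagen genes, against the distance in bases from each transcription start site (arrow). COL6A2 had 4 GC boxes and 1 TATA box, COL4A1 and COL4A2 share their NF-Y core motif, and COL6A3 had no match.

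The deposited intensities are linear, and each array has 1 for every probe set. Anything dimmer than the 50th percentile of all values, an intensity of 10.5, was set to that floor before ratios were formed. A ratio with 1 side at the floor is a lower bound. A gene counts as measured when its brightest probe set, which stands for the gene, is above the floor on at least 1 array. By that rule 12436 of the 19775 genes and 8 of the 10 collagens were measured. Of these 8, COL3A1 and COL5A2 passed only through the siRNA arrays, so each had to be higher on at least 1 of those. Intensities of different probe sets depend on their probes, so levels are compared between arrays and never between chains. Where 3 intensities are given in a row, they are the control, siRNA1 and siRNA2 arrays in that order.

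Array means lay between 95.3 and 96.5. DANCR was at 671, 116 and 126, which is 17.3% and 18.8% of the control. In 11 of the 33 collagen probe sets (33.3%) the value was the same on all 3 arrays within a relative tolerance of 1e-09, as it was in 32.1% of all probe sets, so a log2 ratio of exactly 0 was common. Centring each array on its measured genes moved the log2 ratio of every gene by -0.03 with siRNA1 and by -0.12 with siRNA2. Of the culture's epithelial and mesenchymal markers, KRT18 (1315, 711 and 1022) and VIM (5322, 4412 and 4861) were bright. CDH1, EPCAM, KRT5, KRT19 and the uroplakins UPK1A, UPK1B, UPK2 and UPK3A were below the floor on every array. The other 7 of the 15 markers of urothelium and the line were above it on some array: KRT18, VIM, KRT7, KRT8, GATA3, PPARG and CDH2. KRT7 had log2 ratios of -0.50 and -0.24, and PPARG read 12.5, 14.9 and 14.9. Over the 7 the log2 ratios ran from -0.89 to 0.25 with siRNA1, with 1 above 0 and 4 below. With siRNA2 they ran from -0.36 to 0.80, with 3 above 0 and 4 below. The sums over the 15 markers were 6845, 5303 and 6115, and VIM and KRT18 made up most of each.

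Most collagen probe sets gave little or no signal in this line. Of the 33, 21 were below the floor on every array, and 8 were above it on all 3. COL1A2, the partner chain of type I collagen, had all 3 probe sets below the floor, at 4.20 or less. COL6A3, the largest collagen VI chain, was at 8.21 on each array on its single probe set. Neither gene has a ratio.

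**Figure D2:**
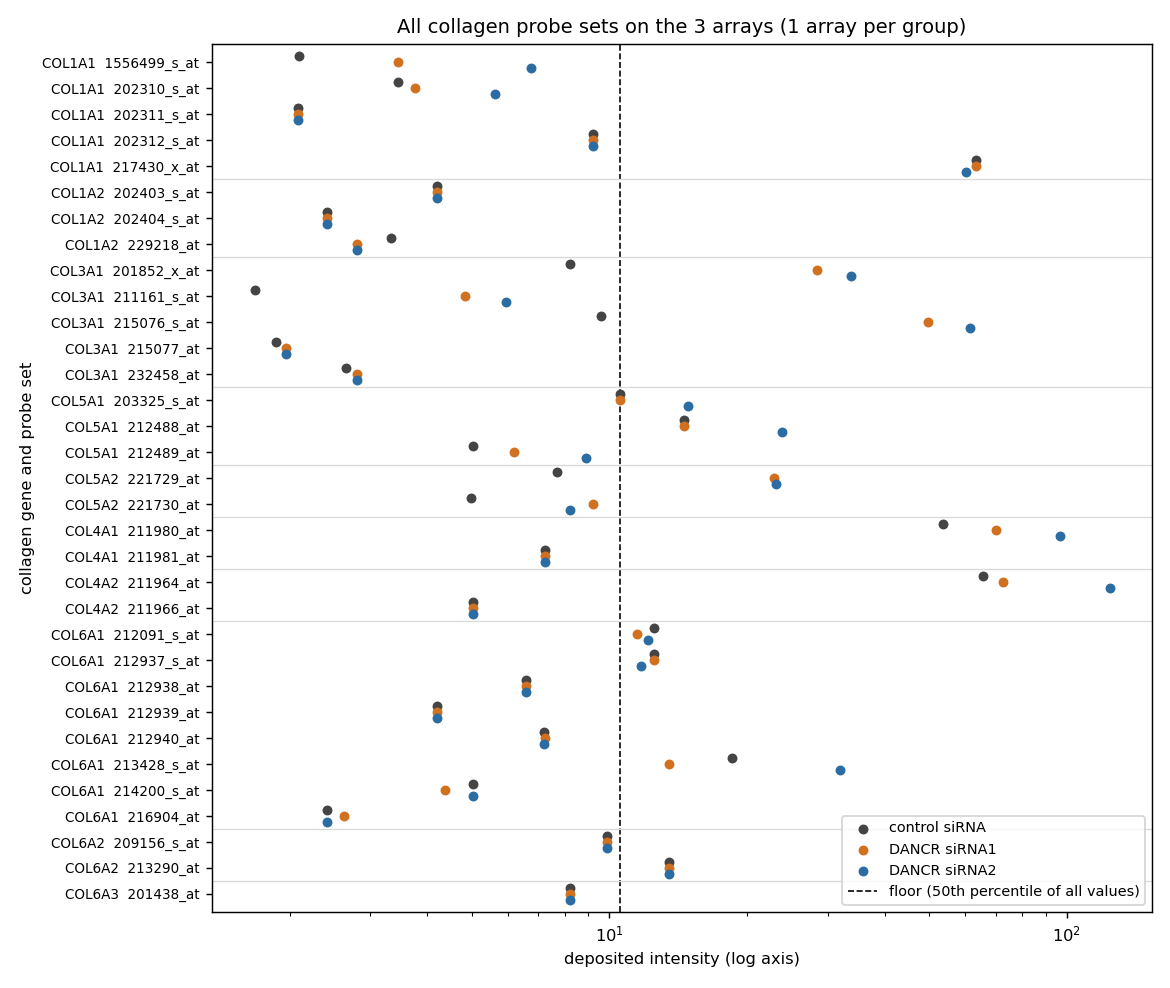
Deposited intensity (log axis) of every collagen probe set in the control siRNA, DANCR siRNA1 and DANCR siRNA2 arrays, 1 point per array, with the floor at 10.5 as a dashed line. Of the 33 probe sets, 12 have a point above the floor. The COL3A1 and COL5A2 probe sets among them cross it between the control and both siRNA arrays.

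COL3A1, the chain of type III collagen in elastic tissues and wound repair, crossed the floor with both siRNAs. Its brightest probe set read 9.58 in the control array, 49.9 after siRNA1 and 61.6 after siRNA2. Both siRNA arrays were well above the control, and siRNA2 was 1.24-fold above siRNA1. Against the floor, COL3A1 was at least 4.74-fold higher with siRNA1 and at least 5.85-fold higher with siRNA2.

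A second COL3A1 probe set read 8.21, 28.5 and 33.7, bounds of at least 2.71-fold (siRNA1) and at least 3.20-fold (siRNA2). Both probe sets placed the arrays in the same order. Their log2 bounds lay 0.81 apart with siRNA1 and 0.87 apart with siRNA2. Both control values were raised to the same floor, so these gaps follow how bright each probe set was. Without the floor the log2 ratios were 2.38 and 1.80 with siRNA1, and 2.68 and 2.04 with siRNA2. Over the 6008 genes of the array with 2 or more measured probe sets, the 2 brightest differed by a median of 0.17 and 0.16. Those are log2 ratios after the floor, and they are not a like measure for the gaps between 2 bounds. Another probe set was below the floor throughout but in the same order, at 1.68, 4.82 and 5.94. The remaining COL3A1 probe sets, which alone lack the suffix _s_at or _x_at, stayed between 1.87 and 2.81. The brightest has the suffix _s_at and the second has _x_at, which marks probes that can match other sequences. Without probe sets of these suffixes COL3A1 was not measured.

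COL5A2, a chain of the type V collagen that nucleates fibrils, also crossed the floor with both siRNAs. It is the next protein-coding gene to COL3A1 on chromosome 2 in RefSeq. Its brighter probe set read 7.67 in the control array, 22.9 after siRNA1 and 23.2 after siRNA2. The siRNA arrays were almost equal and both above the control, by at least 2.17-fold (siRNA1) and at least 2.20-fold (siRNA2). The other COL5A2 probe set was below the floor, at 4.99, 9.20 and 8.21.

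COL5A1, its partner chain, differed with siRNA2 alone. It read 14.5 in the control and with siRNA1, and 23.9 with siRNA2, 1.64-fold higher. A second probe set was at the floor in the control and siRNA1 arrays and at 14.9 with siRNA2. The last, below the floor throughout, read 5.03, 6.19 and 8.88. Set side by side, the type V partners had log2 ratios of 0.00 (COL5A1) and at least 1.12 (COL5A2) with siRNA1, and of 0.71 and at least 1.14 with siRNA2.

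COL1A1, the main chain of type I collagen, was near equal across arrays on its only measured probe set, at 63.2, 63.2 and 60.1. That probe set carries the suffix _x_at, which marks probes that can match other sequences. The other 4 COL1A1 probe sets were below the floor. Of these, 2 had the same value on all arrays, whereas the others read 2.10, 3.45 and 6.75, and 3.45, 3.76 and 5.61. Type I collagen thus had no partner pair to compare, since COL1A2 was not measured.

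The basement membrane chains were measured on every array and were both higher with siRNA2. COL4A1 read 53.5 in the control array, 70.2 after siRNA1 and 96.8 after siRNA2, which is 1.31-fold and 1.81-fold the control. COL4A2 read 65.5, 72.5 and 124, which is 1.11-fold and 1.90-fold. In both genes siRNA1 lay between the control and siRNA2, and no ratio reached 2-fold. The partners differed from each other by 0.24 (log2) with siRNA1 and by -0.07 with siRNA2. Each gene also has a probe set below the floor with the same value on all arrays, so each ratio rests on 1 probe set.

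Collagen VI gave no common direction. The brightest COL6A1 probe set read 18.5 in the control array, 13.5 after siRNA1 and 31.9 after siRNA2. The log2 ratios to the control were -0.45 and 0.78. The 2 other COL6A1 probe sets above the floor did not share that spread. They read 12.5, 11.5 and 12.2, and 12.5, 12.5 and 11.7. The range of the log2 ratio over the 3 probe sets was 0.45 with siRNA1 and 0.88 with siRNA2. COL6A2 was at 13.5 on every array.

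**Figure D3:**
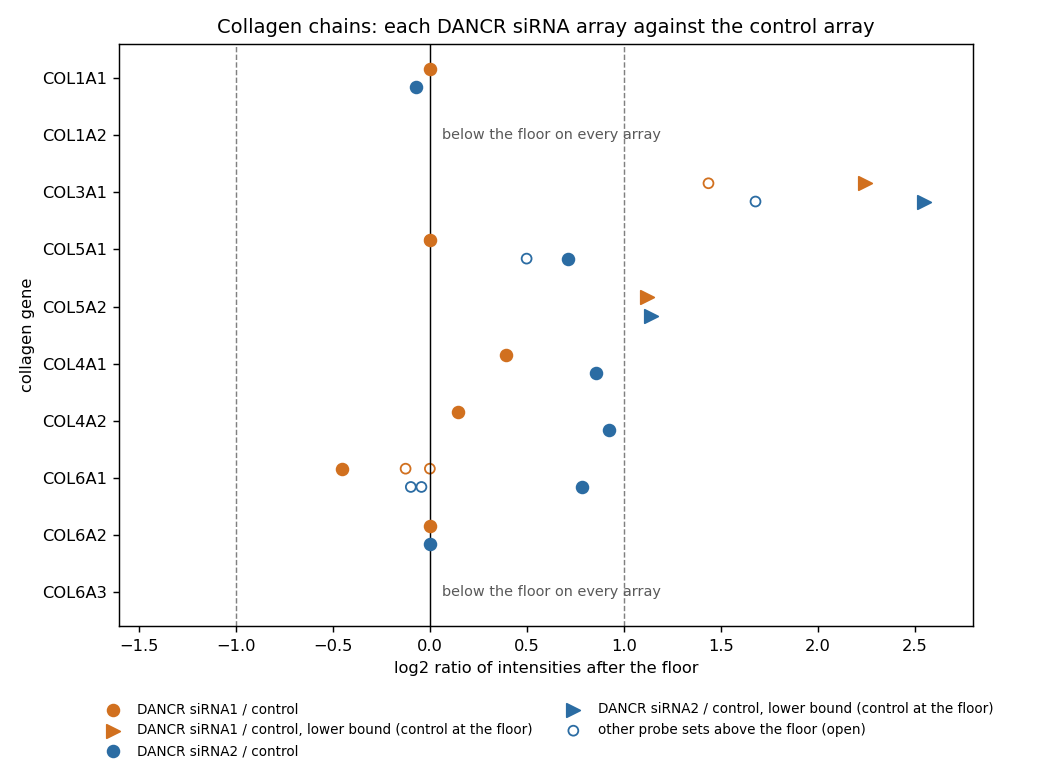
Log2 ratio of each DANCR siRNA array to the control array for the 10 collagen genes, with filled symbols for the brightest probe set, triangles for lower bounds and open circles for other probe sets above the floor (those of COL3A1 and COL5A1 with siRNA2 are bounds too). COL3A1 and COL5A2 lie beyond the dashed 2-fold line with both siRNAs, and COL4A1 and COL4A2 lie below it, at 0.86 and 0.92 with siRNA2.

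Counted over the family, 2 of 8 measured collagens were at least 2-fold higher with siRNA1, against 1.87% of all measured genes, and 2 of 8 with siRNA2, against 2.15%. These are COL3A1 and COL5A2 in both comparisons, which share the control array. Both passed the filter only where they were high, so the count is no support for a family difference, and without them it is 0 of 6. With both siRNAs, 0.716% of all measured genes were 2-fold higher. Among the 214 measured genes with the control at the floor that share was 1.87%, or 4 genes: COL3A1, COL5A2, ID4 and ZNF585B, the last 2 named here after their values were seen. No collagen was 2-fold lower with siRNA1 (1.75% of all genes), with siRNA2 (1.21%) or with both (0.281%).

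Relative to the control, the 8 measured collagens had a median log2 ratio of 0.07 after siRNA1 and 0.82 after siRNA2. Over all measured genes it was 0.00 for each siRNA. With each gene taken as the median of its probe sets, the siRNA2 value was 0.21, and as a mean over genes the siRNA1 value was 0.43. With siRNA2, 6 of the 8 were above 0, as were 5595 of the 12436 measured genes, and COL1A1 (-0.07) was below it. With siRNA1, 4 of the 8 and 5257 of all genes were above 0, 1 collagen was below and 3 were at exactly 0. COL3A1 and COL5A2 had to be above 0 with at least 1 siRNA by the filter. Over the 6 collagens above the floor in the control, 2 were above 0 with siRNA1 (median 0.00) and 4 with siRNA2 (median 0.75). The share of 2-fold genes that were higher was 63.9% over all genes with siRNA2 and 47.2% after median-centring, where the collagen median was 0.70.

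Set against each other, siRNA1 was lower than siRNA2 in 6 of the 8 collagens, as in 5198 of the 12436 measured genes, with a median log2 ratio of -0.38 against 0.00 over all genes. After median-centring 5 were lower and 3 higher, with COL5A2 turning from -0.02 to 0.07, and 5 were lower after quantile normalisation. By the median over all probe sets the collagen median was -0.0053. COL4A2 had -0.78, COL5A1 -0.71, COL4A1 -0.46 and COL3A1 -0.31. COL6A1 was the only one of the 8 that was 2-fold apart, 2.36-fold lower with siRNA1, and its other probe sets had -0.08 and 0.10. Of the 14 other measured collagen genes, 2 were also 2-fold lower with siRNA1, COL4A5 (-1.12) and COL13A1 (-1.03, named after its values were seen). Of all measured genes 2.40% were 2-fold lower and 1.51% were 2-fold higher in this comparison. Of those 2-fold genes 38.6% were higher with siRNA1, and 53.9% after median-centring.

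The remaining collagen genes were taken as a family for comparison, 34 in number, of which 14 were measured. COL17A1 is 1 of the 34, but it had no probe set that names it alone and was not analysed here. The 14 had a median log2 ratio of 0.00 with each siRNA, and 1 was 2-fold higher, with siRNA2. That gene was COL4A5, a type IV chain of kidney and other specialised basement membranes, at 29.8, 34.4 and 74.5. COL4A6, its partner chain, read 13.9, 18.9 and 25.1. The 4 measured type IV chains all placed the arrays in the order control, siRNA1, siRNA2, each on 1 probe set above the floor. How many of all measured genes share that order was not counted. Taken singly, 5257 of the 12436 were above 0 with siRNA1, and 5198 were lower with siRNA1 than with siRNA2. The log2 ratios of the 4 chains with siRNA1 were small, from 0.15 (COL4A2) to 0.44 (COL4A6).

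The next collagens, COL18A1, COL7A1, COL13A1 and COL11A1, are named after their values were seen. COL18A1, the basement membrane collagen that yields endostatin, read 15.9, 15.9 and 21.6. Its other probe set read 12.5, 11.1 and 19.6, log2 ratios of -0.17 and 0.65. COL7A1, the anchoring fibril collagen, was at 27.2 on every array. COL13A1, a transmembrane collagen, read 211, 190 and 390, and its other probe sets read 37.9, 31.1 and 37.9, and 38.5, 34.5 and 46.0. COL23A1, a further transmembrane collagen, read 23.9, 26.2 and 34.5.

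Among the fibrillar relatives, COL27A1 read 76.2, 40.3 and 70.7, and was 1.89-fold lower with siRNA1. A second COL27A1 probe set gave -0.90 (log2) with siRNA1 and another -0.17. COL11A1 was below the floor in the control and with siRNA1 and read 15.8 with siRNA2. COL5A3, a further type V chain, was at 11.1, 11.0 and 11.0. The 3 measured fibril-associated collagens had log2 ratios between -0.06 and 0.00 with both siRNAs, the lowest in COL20A1.

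Of the genes that fold and modify collagen, 17 were measured. With siRNA1, 12 of them were below 0 (median -0.09), as were 4908 of the 12436 measured genes. With siRNA2, 14 were above 0 (median 0.27, and 0.15 with 12 above 0 after median-centring), as were 5595 of all genes. P4HA2, a prolyl hydroxylase subunit that stabilises the helix, read 131, 167 and 198. A weaker P4HA2 probe set went the other way, at 76.1, 71.3 and 57.2. P3H4 read 80.6, 33.0 and 61.5, and was 2.44-fold lower with siRNA1. P3H3, which acts with P3H4 in lysyl hydroxylation of collagen, read 22.5, 11.1 and 17.9.

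In procollagen export and processing, 10 of 16 genes were measured. PCOLCE, the enhancer of the protease that trims procollagen ends, was the only one 2-fold apart from the control in 1 direction with both siRNAs. It read 90.2, 33.5 and 35.0, 2.69-fold and 2.58-fold lower, on its single probe set. Its relative PCOLCE2, named after its values were seen, read 217, 197 and 211. KLHL12, a ubiquitin ligase adaptor for large procollagen carriers, read 73.1, 150 and 111, while its dimmer probe set read 13.5, 15.1 and 13.5. SEC23A, a coat protein of the vesicles that leave the endoplasmic reticulum, read 132, 94.2 and 75.2. The list median was -0.12 and -0.08.

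Of the cross-linking genes, 3 of 7 were measured and none was 2-fold from the control on its brightest probe set. Their median was -0.46 with siRNA1 and 0.07 with siRNA2, the latter -0.05 after median-centring. TGM2, named after its values were seen, was 1.68-fold lower with siRNA1 on its brightest probe set. It was 2.19-fold and 2.56-fold lower on 2 dimmer _x_at probe sets. With siRNA2 the brightest TGM2 probe set was at 0.07 (log2) and the others lay between -0.48 and -0.36. LOX and LOXL1, which cross-link fibrils and are named after their values were seen, were below the floor on every array.

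Among the collagen receptors, DDR2, the receptor kinase that binds fibrillar collagen, read 34.3, 81.5 and 68.2, 2.38-fold and 1.99-fold higher. Other DDR2 probe sets gave the same order, at 18.9, 41.0 and 33.5, and at 30.3, 70.2 and 59.5, except 1 that was at 16.9 on each array. ITGA2, the collagen-binding integrin subunit, read 166, 74.4 and 90.5, 2.23-fold and 1.83-fold lower, and 58.6, 48.9 and 48.9 on its other probe set. ITGA1 was at 11.7 in the control and below the floor with both siRNAs. Of the 11 receptors 8 were measured, and DDR1 had no probe set that names it alone. Of the 8, 2 were above the control with both siRNAs and 3 below it with both. The like shares over all genes were not counted. The 8 had medians of -0.33 and 0.01, the latter -0.11 after median-centring.

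Among 5 measured collagen-degrading enzymes, MMP9, which cleaves type IV collagen, read 167, 23.6 and 34.8, 7.08-fold and 4.81-fold lower. MMP14, a membrane-bound collagenase, read 115, 85.8 and 101, and the lysosomal protease CTSB read 686, 696 and 875. With siRNA1 CTSB was at 0.02 (log2), a direction that flips on median-centring. The list medians were -0.21 and 0.21.

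Matrix partners of the collagens had medians of -0.13 and 0.07 over 13 measured genes, and the latter was -0.05 after median-centring. LAMA5, a laminin chain of the basement membrane, read 82.9, 28.9 and 42.9, 2.86-fold and 1.93-fold lower. TNC, tenascin C, read 29.6, 25.5 and 19.5. VCAN, a proteoglycan, was below the floor in the control on its brightest probe set, which has the suffix _x_at. That probe set read 18.9 with siRNA1 (at least 1.79-fold higher) and 14.5 with siRNA2 (at least 1.38-fold). A second VCAN probe set was above the floor on every array, at 11.3, 12.5 and 12.5, 1.11-fold higher with each siRNA.

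Of the regulators of collagen genes, 19 of 20 were measured, with medians of -0.13 and 0.00, the latter -0.12 after median-centring. LARP6, which binds the stem loop of type I collagen mRNAs, read 262, 385 and 388, but 63.8, 34.5 and 59.5 on a second probe set. SMAD3, a transducer of TGF-beta signals, read 393, 154 and 264, and TGFBR1, a receptor of that pathway, read 82.2, 105 and 137.

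**Figure D4:**
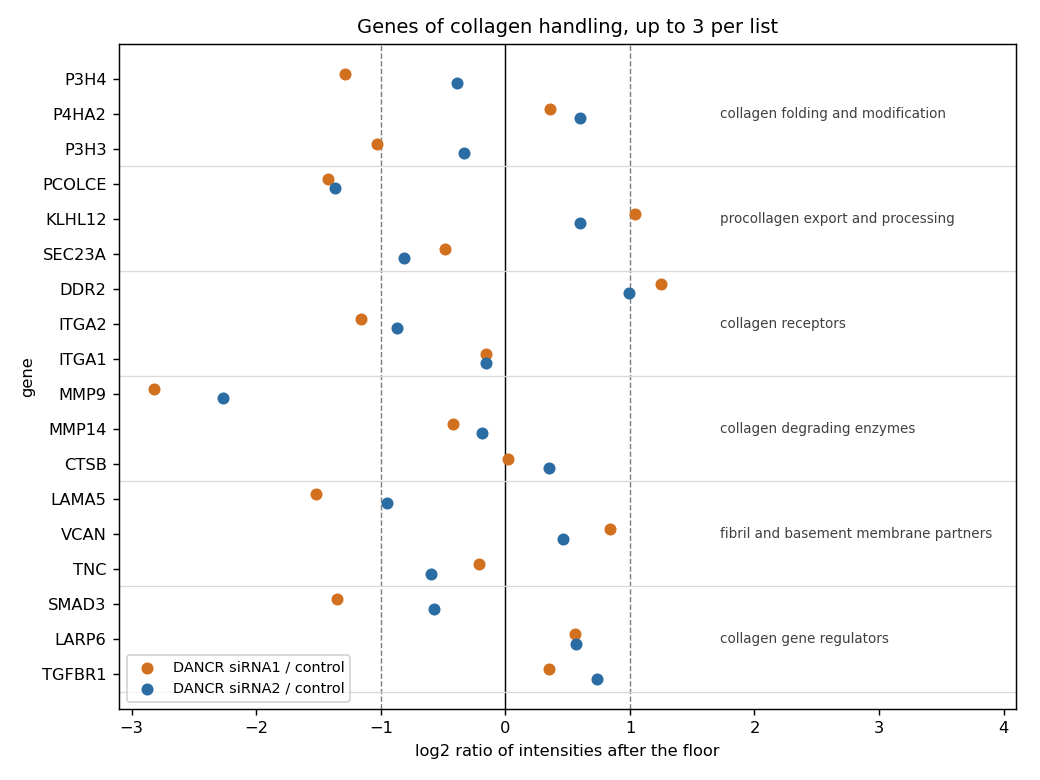
Log2 ratio of each DANCR siRNA array to the control array for genes of collagen handling, up to 3 per list, 1 point per array and dashed lines at 2-fold. PCOLCE and MMP9 lie below -1 with both siRNAs, and DDR2 is at 1.25 and 0.99. VCAN and ITGA1 have a side at the floor.

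Markers of fibroblasts and pericytes other than collagens were set beside these values. Of 12 markers, 7 were above the floor on some array, while DCN, LUM, FAP, ACTA2 and PDPN were below it on all. The summed intensity of the 12 was 279, 367 and 510. TCF21, a transcription factor of mesenchymal progenitors, accounted for that spread: without it the sums were 205, 189 and 207. It read 73.7, 178 and 304 on its brighter probe set, 2.42-fold and 4.12-fold higher, and 53.1, 151 and 142 on the other. RGS5, a pericyte marker, read 14.5, 23.9 and 23.9, PDGFRB read 16.5, 13.5 and 13.5, and THY1, named after its values were seen, read 105, 79.3 and 88.6. The part of these markers in the COL3A1 and COL5A2 values was not tested.

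Of 8 endothelial markers, 2 were above the floor, with sums over the list of 82.4, 55.6 and 67.0. TIE1 read 30.9, 10.1 and 19.5, and PECAM1 was also lower with both siRNAs (-0.33 and -0.15 on the log2 scale), whereas CDH5, VWF, TEK and KDR were below the floor. Of 7 leukocyte markers with a probe set, CD3E and CD79A were above the floor, and the sums were 63.7, 62.7 and 58.2, with PTPRC below the floor. The cells were the UM-UC-3 line, so these lists do not count endothelial cells or leukocytes. In a bulk array fewer cells expressing a marker and less of its RNA per cell cannot be told apart.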

How the data were processed

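The deposited values are intensities per probe set, brought to a common scale by the authors with a method not given in the sources used here; GCOS 1.4 is named per the submitters' processing notes. Probe sets were named from the array annotation supplied, with symbols updated through gene IDs for 41037 of 41091 single-gene probe sets. Probe sets of several genes (1801) or no gene were left out. Values below the 50th percentile were raised to it, log2 ratios were taken between arrays, and 2-fold was the threshold. With 1 array per group no p-value was computed. The collagen members and all gene lists were chosen with earlier results of these data known. Named genes were DANCR, all members, every gene of another list at least 2-fold the same way with both siRNAs, and up to 3 per list with the largest smaller ratio in a shared direction. Others are marked as named after their values were seen, apart from cell type markers listed as above or below the floor and the line marker VIM. Promoter sequences came from RefSeq. The ratio script was tested on simulated data. Alternatives were other floors, thresholds, probe-set rules and scalings. Python 3.11.15, numpy 2.4.6, pandas 2.3.3 and matplotlib 3.10.9 were used.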

Additional observations from a re-analysis of the deposited data

Results flagged for a closer look

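Among the 8 measured collagens of the group, COL6A1 was the only one whose 2 ratios to the control had opposite signs, lower with siRNA1 (-0.45 on the log2 scale) and higher with siRNA2 (0.78). The siRNA arrays lay -1.24 apart. With 1 array each the difference was not tested, and the gene's other measured probe sets did not show it.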

How the results depend on the processing

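No paired analysis was possible because each group is 1 array. The count of collagens 2-fold higher, 2 with each siRNA, was 0 with siRNA1 and 1 with siRNA2 with the floor at the 70th percentile, and 0 with each by the median over all probe sets. It was 1 with each without _s_at and _x_at probe sets, where COL3A1 was not measured and COL5A2 was counted. It was also 1 with each at a 3-fold threshold. At 1.5-fold it was 6 with siRNA2. Over collagens above the floor in the control, an alternative chosen after seeing the data, it was 0 with each. The single collagen 2-fold lower with siRNA1 than with siRNA2 became 0 with the floor at the 70th percentile, by the median over probe sets, without _s_at and _x_at probe sets and at 3-fold, and 3 at 1.5-fold. The collagen median with siRNA1 was 0.43 as a mean over members. With siRNA2 it was 0.21 by the median over probe sets and 0.70 after median-centring. For siRNA1 against siRNA2 it was -0.0053 by the median over probe sets and -0.59 over collagens above the floor in the control. The causes were not tested, beyond that the median over probe sets includes those below the floor. For single collagens, 143 of the alternative ratios kept their side of 2-fold and 7 fell short of it. Most of the 143 belong to ratios that were never 2-fold, whereas all 7 belong to COL3A1, COL5A2 and COL6A1 ratios that were. Settings that left a gene unmeasured are not counted. Among these are COL5A2 with the floor at the 70th percentile, and COL3A1 and COL6A1 without _s_at and _x_at probe sets. COL3A1 was at 0.74 with siRNA1 with the higher floor, and at 0.00 with both siRNAs by the median over probe sets. COL5A2 was at 0.56 and 0.57 by that median. Low signal limits the ratios of COL3A1 and COL5A2, whose control values were below the floor.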
